A study of Litchi chinensis with 30 samples.

Results

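The genes described here are the litchi (Litchi chinensis) transcription factors of the basic helix-loop-helix (bHLH) family whose best protein match in the Swiss-Prot annotation column is a numbered bHLH factor. They were taken as every entry of the deposited table whose annotation reads transcription factor bHLH followed by a number, which gave 110 of 37234 entries. The 110 entries lie in 97 loci, carry 59 different bHLH numbers and were all matched to proteins of Arabidopsis thaliana, so each name and role below comes from that plant. A helix-loop-helix domain was assigned to 82 of them in the Pfam column, while 28 had none there and 9 had neither that domain nor a helix-loop-helix description in any other annotation column. Among these 9 are entries named below, bHLH47 (LITCHI022161.m1), bHLH53 (LITCHI008950.m1), bHLH110 (LITCHI010251.m1), bHLH145 (LITCHI010625.m1) and bHLH146 (LITCHI016430.m1). In 9 loci the table holds several of these entries, 22 in all, and the counting could have split the reads of such a locus between them.

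bHLH factors bind DNA in pairs. The helices and loop of the domain join the partners, and the basic stretch before them contacts short sites such as the E-box. In flowers the family is known for the tapetum, the anther layer that feeds the developing pollen, and in the rest of the plant for stomata, root hairs, light and jasmonate signalling and iron supply. Some members lack the basic stretch and act by pairing with other factors so that these no longer bind DNA.

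The study sequenced RNA of whole flowers of the cultivar Feizixiao, taken in the morning, to follow functionally female (F) and functionally male (M) flowers through 5 stages. Stages 1 to 3 are buds told apart by their size, at stage 4 part of the flowers had opened and stage 5 is full bloom, which gives 10 groups, F1 to F5 and M1 to M5, of 3 replicates each. No treatment is named for these samples, and female flowers of litchi also carry stamens, which do not open. The study's methods describe sampling in triplicate from different sides of the tree, so the tests measure the spread between these samples, and in whole flowers fewer cells of a type and less RNA per cell cannot be told apart.

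Total counts lay between 27433038 and 43760285 per library, with a median of 34876110, and the TMM scaling factors between 0.77 and 1.16, lowest in M5. As a check of the labels, 4 genes annotated with pistil or ovule functions were read, and they did not go one way. AGL11, the litchi match of the ovule identity factor SEEDSTICK, had means of 12.1 FPKM in F4 and 13 FPKM in F5 against 0.587 FPKM in M4 and 0.389 FPKM in M5. CRABS CLAW, a factor of carpel and nectary growth in Arabidopsis, was called the other way, with log2 fold changes (female over male) of -1.08 at stage 4 and -1.54 at stage 5, and the remaining genes were not called at either stage. The summed level of the 4 was 181 to 303 FPKM in F5 and 421 to 463 in M5. Of 8 genes annotated as pollen-specific or as pollen receptor-like kinases, 7 were lower in female flowers at stage 4 (7.4% of all tested genes) and 7 at stage 5 (11.6% of all tested genes). FPKM, the number of fragments scaled by transcript length and library depth, is the unit of every level given here. FPKM values do not carry the TMM scaling of the fits, so with the low factors of M5 (0.77 to 0.81) a ratio of FPKM means of F5 over M5 lies above the fitted fold change. Of the bHLH genes, 85 reached a mean of 1 FPKM in at least 1 group, 44 reached 10 FPKM, and 25 stayed under 1 FPKM in every group. A test was possible for 93. The other 17 were removed by the filter on low counts, and 2 of them had 0 counts in every library.

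The first question of the design was where the sexes differ. In buds the bHLH genes differed little between female and male flowers, and from stage 4 onward they differed widely. A gene was called when the edgeR false discovery rate (FDR) over all 27854 tested genes was under 0.01 and the fold change was at least 2, the thresholds of the study. At stage 1 no bHLH gene was called higher in female flowers (background over all tested genes 0.402%) and 1 was lower (background 0.923%). At stage 2 these numbers were 0 higher (background 0.194%) and 1 lower (background 0.341%), and at stage 3 they were 0 higher (background 0.348%) and 2 lower (background 0.413%). An unadjusted p under 0.05 was reached by 25 members at stage 1 (26.9%, background 23.2%), 26 at stage 2 (28%, background 18.9%) and 26 at stage 3 (28%, background 20%). With DESeq2, 3, 3 and 8 members were called at these stages.

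At stage 4, 16 of the 93 tested members were higher in female flowers, 17.2% against a background of 9.55%, and 9 were lower, 9.68% against 7.4%. At stage 5, 24 were higher, 25.8% against a background of 17.6%, and 12 were lower, 12.9% against 11.6%. The median log2 fold change (female over male) of the members was 0.10 at stage 4 and 0.26 at stage 5, where it was -0.02 and 0.03 over all tested genes. Higher in female flowers at both stages were 15 members, 16.1% against a background of 8.29%, and lower at both were 6, 6.45% against 5.26%. None was called in opposite directions (background 0.0718%). The 15 were bHLH25 (2 genes), bHLH30, bHLH51, bHLH67, bHLH71, bHLH74, bHLH93 (2 genes), bHLH96 (2 genes), bHLH106, bHLH110, bHLH149 and bHLH153, and the 6 were bHLH30, bHLH63, bHLH91, bHLH95, bHLH123 and bHLH162. These splits depended on the scaling. When libraries were scaled by their total counts alone, the median of all genes moved to 0.19 at stage 4 and 0.50 at stage 5, and the members called were 20 higher and 8 lower at stage 4 and 29 higher and 9 lower at stage 5.

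**Figure D1:**
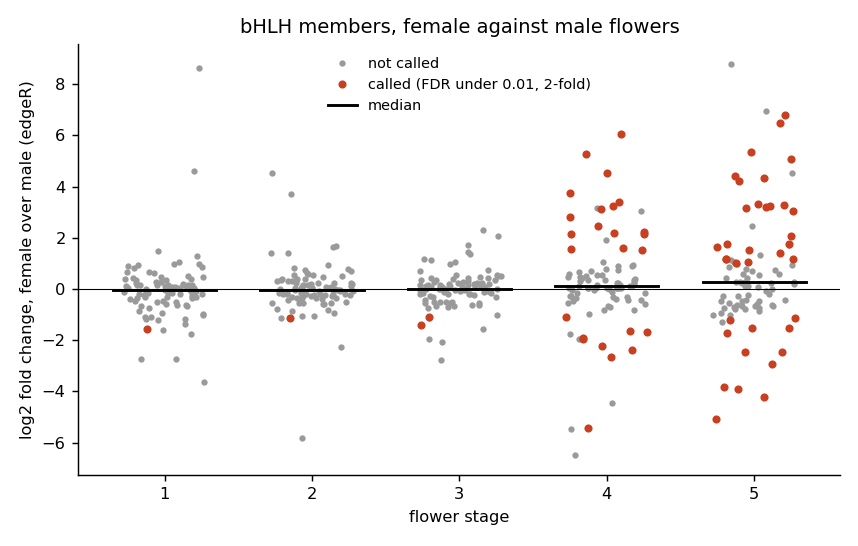
Log2 fold change of female over male flowers (y axis, edgeR) of each of the 93 tested bHLH genes at each flower stage (x axis). Red points were called, grey points were not, and the black bar is the median. The called points number 1, 1 and 2 in the bud stages, 25 at stage 4 and 36 at stage 5.

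A set that parted the sexes in full bloom was the relatives of SPEECHLESS, MUTE and FAMA, the Arabidopsis factors that carry stomatal cells from first division to guard cell. All 5 numbered litchi genes of this group, bHLH67, bHLH71 and 3 annotated as bHLH96, were higher in female flowers at stage 5 (background 17.6%) and 4 of them at stage 4 (background 9.55%). As the bud opened, 2 genes of bHLH96 rose (background 4.56%) and 1 fell (background 7.51%) in female flowers, and 4 of the 5 fell in male flowers (background 12.6%). The litchi genes annotated with the names of the stomatal factors themselves, which carry no bHLH number, did not share one direction. FAMA (LITCHI015071.m1) had means of 8.58 FPKM in F4 and 17.5 in M4 and was called lower in female flowers there, by -1.25 (FDR = 0.000178, edgeR), and at stage 5 its value was -0.95. SPEECHLESS (LITCHI009519.m1) was higher in female flowers, by 3.55 and 3.86 at stages 4 and 5, and the entries of MUTE stayed at means of 0 to 0.319 FPKM and were not called.

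bHLH96 (LITCHI003914.m1) stood at 28.8, 29.4 and 23.4 FPKM in the libraries of F4 and at 19.7, 34.4 and 30.7 in F5. The male libraries were at 0.321, 0.425 and 0.294 FPKM in M4 and at 0.856, 0.489 and 0.464 in M5. Each open female flower library was thus far above each open male one, and the log2 fold change was 6.06 ± 0.37 (SE; FDR = 4.59e-11, edgeR) at stage 4 and 5.07 ± 0.35 (FDR = 3.08e-11) at stage 5. It was the only member called in opposite directions when the sexes opened: from stage 3 to 4 it rose by 1.41 ± 0.29 on the log2 scale in female flowers and fell by 3.59 ± 0.34 in male flowers. In the youngest buds the groups were closer, and F1 had a mean of 6.13 ± 0.30 FPKM against 5.37 ± 0.189 in M1. Errors of means are SD over n = 3 libraries, and those of fold changes are SE.

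bHLH71 (LITCHI020437.m1) showed the same order of the sexes at lower levels. Its libraries were at 2.56, 4.16 and 7.77 FPKM in F5 and at 0.0469, 0 and 0.0459 in M5, where only 13 counts were seen over the group. The log2 fold change was 6.80 ± 0.70 at stage 5 (FDR = 1.86e-08, edgeR) and 5.28 ± 0.63 at stage 4 (FDR = 4.83e-07). The change from stage 1 to stage 5 differed between the sexes by 6.65 ± 0.85 on the log2 scale (FDR = 1.14e-06).

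The other 3 genes of the group fell or stayed lower in male flowers. bHLH67 (LITCHI026782.m1) began at 13.7 ± 1.02 FPKM in F1 and 12.6 ± 0.557 in M1, was at 4.2 ± 0.0522 in F5 and reached 0.162 ± 0.0494 in M5. It fell in both sexes between stages 2 and 3, was called lower at each later step in males only, and its fold change at stage 5 was 4.23 ± 0.33 (FDR = 1.64e-10, edgeR). A second bHLH96 (LITCHI010587.m1) ended at 14.7 ± 1.82 FPKM in F5 and 1.18 ± 0.418 in M5. The remaining bHLH96 (LITCHI007259.m1) fell in both sexes on opening and was low in both at stage 5, with 0.748 FPKM in F5 and 0.12 in M5.

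**Figure D2:**
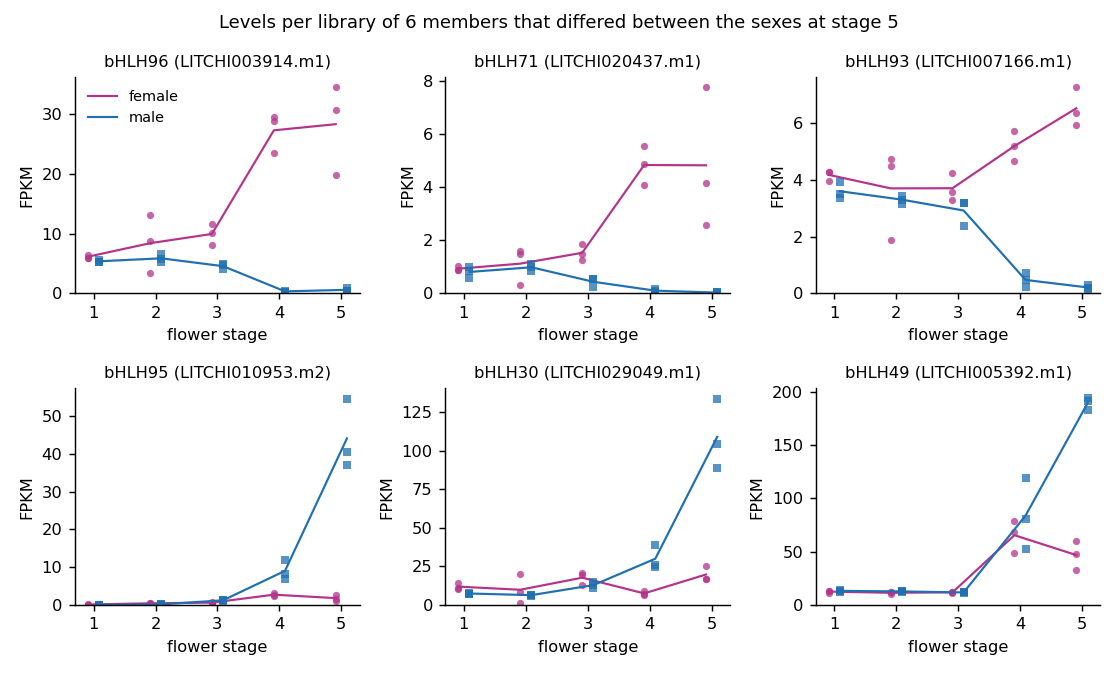
Level in FPKM (y axes, linear from 0) against flower stage (x axes) for 6 bHLH genes, with circles for female and squares for male libraries and lines through the group means. In the upper panels, bHLH96, bHLH71 and bHLH93, the female libraries lie above the male ones at stages 4 and 5. In the lower panels, bHLH95, bHLH30 and bHLH49, the male libraries lie above the female ones at stage 5.

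Relatives of ICE1, the partner of the stomatal factors and a regulator of the cold response in Arabidopsis, followed in part. Both genes annotated as bHLH93, a factor needed in Arabidopsis for flowering in short days, were higher in female flowers at stages 4 and 5. LITCHI007166.m1 was at 5.96, 6.38 and 7.28 FPKM in F5 and at 0.147, 0.313 and 0.177 in M5, a log2 fold change of 4.40 ± 0.35 (FDR = 2.62e-10, edgeR). The groups were far apart in full bloom, whereas in the youngest buds the means were 4.19 ± 0.19 FPKM (F1) and 3.61 ± 0.295 FPKM (M1).

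LITCHI010727.m1 was at 10.7 ± 2.4 FPKM in F5 and 0.94 ± 0.37 in M5 (3.04 ± 0.20, FDR = 1.72e-11). The remaining gene of the group, bHLH27 (LITCHI016435.m1), had the highest mean of all the members over the 30 libraries and behaved otherwise. It was at 86.2 ± 18.2 FPKM in F2 and 102 ± 1.08 in M2, fell in both sexes on opening and was not called between the sexes at any stage. Its value at stage 5 was 0.11 ± 0.13 on the log2 scale, with 28.6, 26.8 and 29.4 FPKM in F5 and 16.7, 20.1 and 19.5 in M5. This value turned to -0.01 without M5 replicate 1. Genes annotated as ICE1 (LITCHI020826.m1 and LITCHI020828.m1) and SCREAM2 (LITCHI027447.m1) carry no bHLH number. They were called higher in female flowers at stage 5, by 2.566, 2.579 and 1.995 on the log2 scale. At stage 4 their values were 0.159, 0.448 and 0.23 and were not called.

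The small group of bHLH30, bHLH51 and bHLH106 split by gene. bHLH106, linked in Arabidopsis to salt tolerance, bHLH51 and one bHLH30 were higher in open female flowers, and the other bHLH30 was higher in open male flowers. The male-high bHLH30 (LITCHI029049.m1) was at 25.5, 16.5 and 17 FPKM in F5 and at 88.8, 133.8 and 104.5 in M5. Its log2 fold change was -2.24 ± 0.48 at stage 4 (FDR = 0.000534, edgeR) and -2.94 ± 0.49 at stage 5 (FDR = 1.80e-05). No library of M4 or M5 reached down to the female range of its stage, although the replicates of F2 ranged from 1.48 to 19.8 FPKM.

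The female-high bHLH30 (LITCHI005472.m1) was a weakly expressed gene, at 2.36 ± 1.01 FPKM in F5 and 0.0787 ± 0.0241 in M5. It fell in male flowers on opening and differed by 3.40 ± 0.45 at stage 4 (FDR = 1.86e-06, edgeR) and 4.32 ± 0.49 at stage 5 (FDR = 7.16e-08). bHLH106 (LITCHI008621.m1) was at 4.44, 4.01 and 3.57 FPKM in F4 and at 0.385, 0.38 and 0 in M4, with no overlap. Its fold change there was 3.74 ± 0.68 (FDR = 0.000104), with FDR = 0.017 when F4 and M4 alone entered the fit. bHLH51 (LITCHI027372.m1) was higher by 1.54 and 1.75 at stages 4 and 5.

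Among relatives of CIB1 and BIGPETAL, factors known in Arabidopsis for light-dependent flowering and petal size, 1 of 11 genes was higher and 3 were lower in female flowers at stage 5, where the backgrounds were 17.6% and 11.6%. bHLH49, which promotes cell elongation in Arabidopsis, was among the most abundant members. LITCHI005392.m1 lay at 11.9, 12.1 and 11.1 FPKM in F3 and 12.1, 12.1 and 10.7 in M3, and at stage 4 it was at 49.1, 68.3 and 78.9 in F4 and 52, 80.5 and 119 in M4. It thus rose in both sexes on opening.

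At stage 5 the sexes parted for this gene, with 60.3, 47.6 and 32.3 FPKM in F5 and 194, 183 and 191 in M5. The log2 fold change was -2.48 ± 0.23 (FDR = 4.40e-09, edgeR), and at stage 4, where the libraries overlapped, it was -0.58 ± 0.22 (FDR = 0.0368). The change from stage 1 to 5 was larger in males by 2.34 on the log2 scale (SE 0.32, FDR = 2.72e-06). Genes annotated as bHLH63, the number of CIB1 itself, were lower in female flowers at stage 5, with log2 fold changes of -2.47 ± 0.18 for LITCHI001829.m1 and -1.54 ± 0.18 for LITCHI006614.m1. The first of them carries a universal stress protein domain in the Pfam column beside its bHLH name. bHLH74 (LITCHI010783.m1) went the other way, at 14.1 ± 1.25 FPKM in F4 and 2.73 ± 0.212 in M4 (2.14 ± 0.17, FDR = 1.50e-09).

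The largest fitted difference in favour of male flowers among the members called at stage 5 was in bHLH95, known in Arabidopsis as ZHOUPI, which acts in the endosperm on the growth of the embryo. The table splits this locus into LITCHI010953.m1 and LITCHI010953.m2. The second entry was at 2.72, 1.48 and 1.12 FPKM in F5 and at 37.1, 54.7 and 40.7 in M5. It rose step by step in males, from 0 counts in M1 to 1.19 ± 0.186 FPKM in M3, 9.0 ± 2.6 in M4 and 44.2 ± 9.27 in M5, and each step from M2 on was called. In female flowers it stopped at 2.68 ± 0.354 FPKM in F4.

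Its log2 fold change was -1.96 ± 0.50 at stage 4 (FDR = 0.00292, edgeR) and -5.09 ± 0.57 at stage 5 (FDR = 1.35e-07). The stage 4 call was lost without F4 replicate 1, F4 replicate 3 or M4 replicate 3, at FDR of 0.0147, 0.0121 and 0.0129. The other entry had a log2 fold change of -4.21 ± 0.78 at stage 5. With both entries summed the locus was at 2.02 ± 0.827 FPKM in F5 and 47.6 ± 10.02 in M5, and differed by -5.03 ± 0.41 (FDR = 1.69e-10).

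Factors linked to jasmonate moved in both directions. In Arabidopsis bHLH19 and bHLH25 are induced by jasmonate and promote the breakdown of the iron regulator FIT, and bHLH3 and bHLH13 repress jasmonate responses. Of 10 tested genes, 4 were higher in female flowers at stage 5 (3 bHLH25 genes and bHLH3; background 17.6%), 1 was lower (bHLH19, 0.0252 FPKM in F5 and 0.34 in M5; background 11.6%), and 4 fell in male flowers from stage 3 to 4 (background 12.6%). A pair of bHLH25 genes led them.

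LITCHI007146.m1 was at 0.898, 1.57 and 1.88 FPKM in F5 and 0, 0.0278 and 0 in M5. Those groups held 352 and 2 counts, a ratio of 99.7 after scaling with an exact 95% binomial interval of 27.4 to 827, which covers counting error only. The fitted log2 fold change was 6.48 ± 1.15 (FDR = 4.18e-05, edgeR), and 4.51 ± 1.00 (FDR = 0.000723) at stage 4. This is thus a gene that nearly disappeared from open male flowers while the open female libraries lay between 0.682 and 1.88 FPKM.

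LITCHI007147.m1 was also near 0 in open male flowers, at 0.859, 2.22 and 2.19 FPKM in F5 and 0.0413, 0.0314 and 0 in M5 (5.35 ± 0.72, FDR = 9.13e-07). In males it had fallen earlier, by 3.25 ± 0.59 on the log2 scale from stage 2 to 3. Near-identical copies can share reads, and no sequences were analysed here, so values of genes matched to the same Arabidopsis protein are uncertain to that extent.

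Of the other bHLH25 genes, LITCHI007142.m1 was highest in the youngest buds, at 6.52, 5.74 and 3.3 FPKM in F1 and 13.3, 12.4 and 6.36 in M1, and lost nearly all its counts on opening. It had 0 counts in the 3 libraries of F4 against 596 in F3, which puts F4 at least 199-fold lower at a floor of 3 counts over the group. Its locus holds 3 entries of the family, and their sum fell by 3.11 ± 0.36 on the log2 scale (FDR = 3.26e-07, edgeR). The weakly expressed LITCHI007143.m1 was lower in F4, at 0.0219, 0.0362 and 0.137 FPKM, than in M4, at 0.527, 0.246 and 0.294 (-2.64 ± 0.56, FDR = 0.000472, or 0.022 when those groups alone were fitted).

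Of the repressors, bHLH3 (LITCHI026097.m1) was within 22.7 to 27.3 FPKM in every female group and every male bud group, and was at 15.7 ± 1.34 in M4 and 8.43 ± 0.66 in M5. bHLH13 (LITCHI026870.m1) declined in both sexes, from 40.3 ± 1.53 FPKM in F1 to 16.2 ± 3.82 in F5 and from 61.4 ± 0.306 in M1 to 7.94 ± 0.871 in M5, further in males by 1.24 ± 0.23 on the log2 scale (FDR = 0.000124, edgeR).

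A single gene among those annotated as bHLH162 had the earliest called difference between the sexes. LITCHI021034.m1 was the one member called at stages 1 and 2. Its libraries were at 5.54, 6.44 and 6.03 FPKM in F1 and 17.2, 16.3 and 17.8 in M1. They did not overlap at stages 1 to 3, and the log2 fold changes were -1.57 ± 0.15 (FDR = 1.69e-06), -1.14 ± 0.15 (FDR = 0.00013) and -1.39 ± 0.15 (FDR = 9.18e-06, edgeR). With F2 and M2 alone in the fit, the FDR at stage 2 was 0.081.

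The order then ended. At stage 4 the gene was at 6.04, 7.01 and 6.4 FPKM in F4 and 3.08, 3.08 and 3.44 in M4, so that the female libraries were now the higher ones, by 0.80 ± 0.15, under the 2-fold limit. It was at stage 5 at 7.81 ± 1.26 and 8.11 ± 1.72, a difference of -0.53 ± 0.15 that was not called. A second bHLH162 (LITCHI023771.m1) had means of 0.113 to 1.37 FPKM in all bud groups and in open female flowers, and was at 5.07, 4.5 and 4.72 FPKM in M4. Its log2 fold change was -5.42 ± 0.85 at stage 4 (FDR = 1.82e-05, edgeR). Among called members without overlapping libraries and with a mean of 1 CPM or more, that was the largest in favour of male flowers there. At stage 5 it was -3.85 ± 0.80 (FDR = 0.000234), with FDR = 0.0127 when F5 and M5 alone were fitted. The only other member called in buds was a bHLH62 (LITCHI026971.m1), a CIB1 relative, at 1.85, 2.07 and 1.88 FPKM in F3 and 4.54, 3.98 and 3.53 in M3 (-1.11 ± 0.14, FDR = 4.17e-05). This bHLH62 gene did not keep that order at stage 4, with 1908 counts in F4 and 810 in M4, and was not called there. The count at stage 1 became 2 without F1 replicate 1, M1 replicate 1 or M1 replicate 2.

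A few more members differed between open female and male flowers. bHLH41 (LITCHI017609.m1) was at 0, 0.0565 and 0.176 FPKM in F4 and 0.361, 0.467 and 0.293 in M4 (-2.40 ± 0.65, FDR = 0.00416). This call was lost without F4 replicate 2 (FDR = 0.0219), without M4 replicate 2 (FDR = 0.0139) or when F4 and M4 alone were fitted (FDR = 0.0844, edgeR). Of the 3 tested genes annotated as bHLH155, relatives of the vascular factor LONESOME HIGHWAY, 2 rose in males between stages 4 and 5 (background 3.63%). The remaining one (LITCHI023614.m2) had 19 counts in M4 and 6 in M5 and was not called (-1.43 ± 1.02). LITCHI026069.m1 reached 46.4 ± 3.14 FPKM in M5 against 19.6 ± 3.94 in F5 (-1.71 ± 0.18, FDR = 2.95e-08), and LITCHI026075.m1 reached 34.5 ± 1.15 against 16.7 ± 4.04 (-1.51 ± 0.17).

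Both genes of bHLH82, one of the Arabidopsis root hair factors, fell in males at that step and were higher in female flowers at stage 5, by 1.18 ± 0.19 for LITCHI017463.m1 and 1.01 ± 0.22 for LITCHI017467.m1. Higher in open female flowers were also bHLH110 (LITCHI010251.m1, 2.48 and 3.33 at stages 4 and 5), bHLH149 (LITCHI004109.m1, 1.59 and 1.40), a relative of the atypical factors that do not bind DNA, and 1 of the genes of bHLH153 (LITCHI015472.m1, 1.55 and 1.54). bHLH113 (LITCHI001506.m1) differed at stage 5 alone by the thresholds, at 4.7 ± 0.609 FPKM in F5 and 0.354 ± 0.133 in M5 (3.26 ± 0.20, FDR = 3.92e-12).

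In some groups few or no genes were called between the sexes. None of the 4 genes of the SAC51 family, which in Arabidopsis takes part in the response to thermospermine during stem growth, was called between the sexes at any stage, and none of the 4 iron-related genes bHLH47 (POPEYE), bHLH104 and bHLH121 was. Over all tested genes 33.1% were called between the sexes at 1 stage or more, and nothing particular to these groups is read from the counts of 0. Of the 7 FLOWERING BHLH relatives, known in Arabidopsis as activators of CONSTANS, 1 was called between the sexes, a bHLH130 entry (LITCHI024053.m2) at 1.04 ± 0.18 at stage 5. With the entries of its locus summed the value was 0.91 ± 0.08 and was no longer past the 2-fold limit. At stage 5 the fitted values of the SAC51 genes lay between -0.27 and 0.42 on the log2 scale and those of the iron genes between -0.96 and 0.26. For the iron gene bHLH121 (LITCHI006473.m1), however, the change from stage 1 to 5 differed between the sexes. The difference, female minus male, was -1.12 ± 0.18 (FDR = 2.04e-05, edgeR) and was called. This entry also carries EF-hand and protein kinase domains in the Pfam column. For the other bHLH121 gene (LITCHI001966.m1) the difference was -0.73 ± 0.17 and was not called. bHLH145 (LITCHI010625.m1), a SAC51 gene, was the fifth member by mean level. It was at 56.9 ± 1.93 FPKM in F1 and 66.9 ± 2.67 in M1, and at 34 ± 1.3 in F5 and 21 ± 1.74 in M5, with 0.23 ± 0.07 at stage 5.

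**Figure D3:**
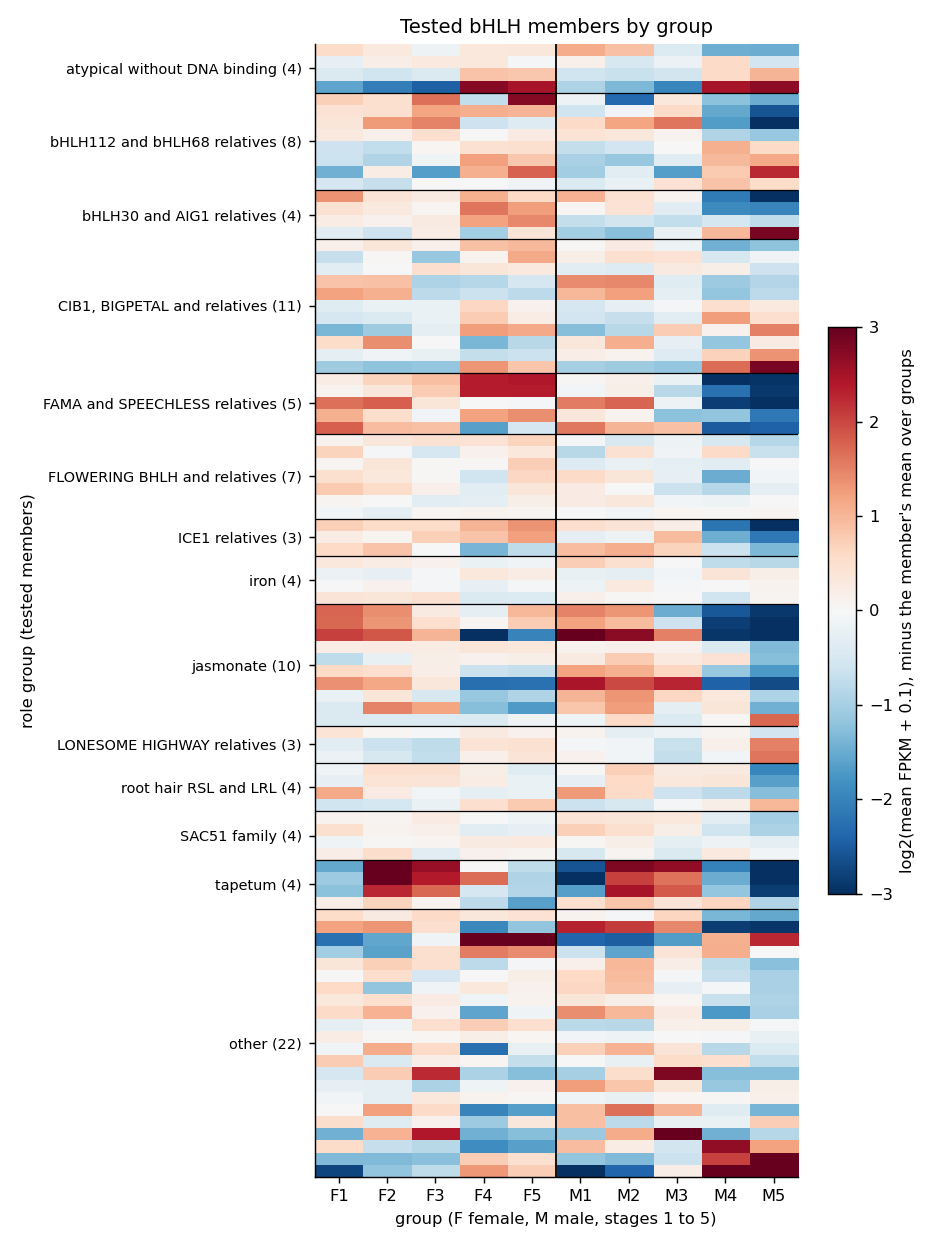
Mean level of each of the 93 tested bHLH genes (rows, ordered within role groups by the difference between F5 and M5) in the 10 groups (columns), as log2(mean FPKM + 0.1) minus the mean of that gene over the groups; colours are capped at 3 on this scale. The relatives of FAMA and SPEECHLESS are blue in M4 and M5, the SAC51 and iron genes stay pale in every column, and 3 of the 4 tapetum genes are red in stages 2 and 3 of both sexes.

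The second question was how the genes move as the flower develops. Most of the change fell between the last bud stage and stage 4. In male flowers 25 members fell from stage 3 to 4, 26.9% against a background of 12.6%, and 12 rose, 12.9% against 7.73%. In female flowers 11 fell, 11.8% against a background of 7.51%, and 12 rose, 12.9% against 4.56%. Of these, 9 fell in both sexes, 9.68% against a background of 4.12%, and 8 rose in both, 8.6% against 3.09%. A bHLH96 gene alone went in opposite directions (background 0.23%). Scaling by total counts moved the median of all genes to -0.17 from M3 to M4 and to -0.29 from M4 to M5, and gave 12 members that rose and 27 that fell from M3 to M4.

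The other steps held fewer calls. From stage 1 to 2, 4 members rose in female flowers (2 entries of bHLH91, bHLH162 and bHLH168; background 2.33%) and 2 in male flowers (the same 2 entries of bHLH91; background 1.69%), and none fell in either (backgrounds 0.675% and 0.966%). The female count was 2 without F1 replicate 1 or F1 replicate 2 and 1 when F1 and F2 alone were fitted, and the male count was 1 with M1 and M2 alone. From stage 2 to 3, none rose (background 1.53%) and 4 fell (bHLH63, bHLH67 and 2 entries of bHLH137; background 0.977%) in female flowers, a count that became 8 without F2 replicate 3 and 0 when F2 and F3 alone were fitted. In male flowers 4 rose (bHLH53, bHLH62, bHLH93 and bHLH95; background 3.76%) and 7 fell (background 2.47%). From stage 4 to 5, 2 members rose in female flowers (bHLH41 and bHLH130; background 0.75%) and none fell (background 0.467%). In male flowers 10 rose (background 3.63%) and 6 fell (background 7%), or 9 and 11 when libraries were scaled by their total counts alone.

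**Figure D4:**
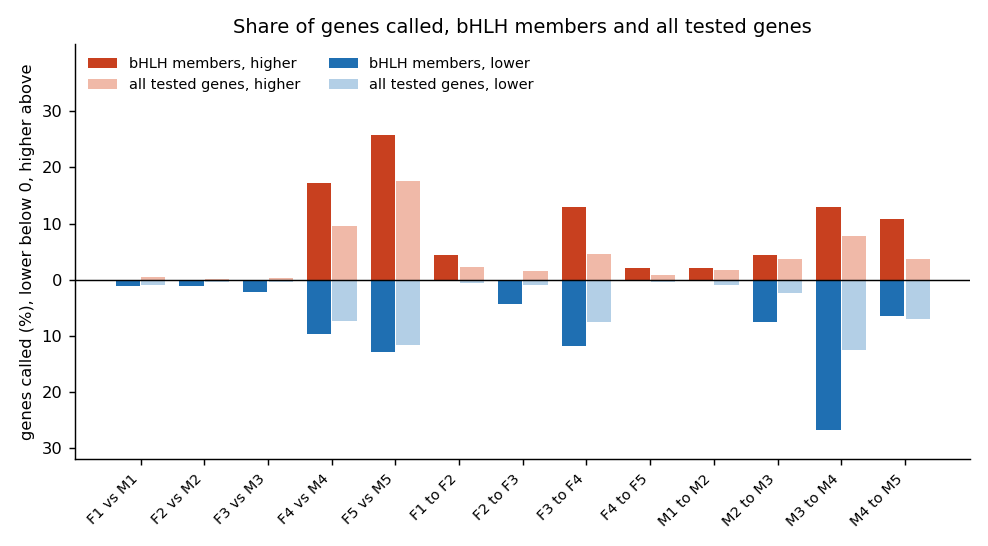
Percent of genes called (y axis; higher in female or at the later stage above 0, lower below 0) in each comparison (x axis), with dark bars for the 93 tested bHLH genes and pale bars for all 27854 tested genes. The longest dark bars are 26.9% lower from M3 to M4 and 25.8% higher in F5 than in M5.

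The genes that rose on opening in both sexes included bHLH146, an atypical factor thought not to bind DNA. LITCHI016430.m1 was at 0.132, 0.219 and 0 FPKM in F3 and 0.132, 0.187 and 0.294 in M3, and then at 7.98, 7.11 and 8.3 in F4 and 6.07, 5.72 and 7.57 in M4. It rose by 5.62 ± 0.70 (FDR = 1.67e-06) and 4.81 ± 0.67 (FDR = 2.64e-06, edgeR) on the log2 scale. The libraries of open flowers of both sexes spanned 4.89 to 9.15 FPKM.

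Among the most abundant members, bHLH68 and bHLH79 had their highest means in M4. bHLH68 (LITCHI016791.m1) was at 43.7 ± 2.16 FPKM in M3, 91 ± 4.99 in M4 and 60.4 ± 3.05 in F4. bHLH79 (LITCHI022247.m1), a CIB1 relative, was at 32.1 ± 2.67, 96 ± 2.22 and 68.3 ± 3.57. Both were called from M3 to M4 (1.17 ± 0.09 and 1.69 ± 0.10) and neither between the sexes.

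Genes that fell on opening in both sexes included bHLH168 and bHLH113. bHLH168 (LITCHI021431.m1) had its highest means at stages 2 and 3 in both sexes and means of at most 0.0483 FPKM elsewhere. It was at 1.2, 1.28 and 1.49 FPKM in F3 and 1.65, 1.89 and 2.64 in M3. M4 held 0 counts against 168 in M3, at least 47.4-fold lower at a floor of 3 counts over the group. bHLH113 fell by 3.23 ± 0.19 from M3 to M4 (FDR = 5.23e-12, edgeR) and by a further 2.15 ± 0.19 to M5 (FDR = 1.71e-08).

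Earlier falls were seen in bHLH137, a CIB1 relative whose locus holds 2 entries. The main entry (LITCHI020266.m1) went from 36.9 ± 10.5 FPKM in F2 to 10.5 ± 2.46 in F3 and from 54.1 ± 9.15 in M2 to 15.6 ± 1.79 in M3. The minor entry (LITCHI020266.m5) fell by 2.10 ± 0.48 in female flowers (FDR = 0.00633, edgeR), a call lost without any 1 of F2 replicate 1, F2 replicate 2, F3 replicate 1, F3 replicate 2 or F3 replicate 3 (FDR of 0.0125 to 0.0393). With both entries summed the fall was 1.87 ± 0.26 (FDR = 1.88e-05). From stage 4 to 5 in female flowers, bHLH41 rose by 2.95 ± 0.66 (FDR = 0.00768). That call was lost without F4 replicate 1 (FDR = 0.0133), F4 replicate 2 (FDR = 0.0503) or F5 replicate 1 (FDR = 0.0739), and with a replicate block (FDR = 0.0133). The count of 2 at this step was 1 without either of those F4 libraries and 0 without that F5 library or when F4 and F5 alone were fitted.

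The tapetum factor bHLH91, which in Arabidopsis pairs with DYSFUNCTIONAL TAPETUM 1, was annotated at 2 loci that behaved differently. LITCHI025266 holds 3 entries, m1, m5 and m6, and rose at stage 2 in both sexes. Summed over the entries it was at 4.48 ± 1.01 FPKM in F1 and 2.27 ± 0.491 in M1, then at 89.7 ± 16.8 in F2 and 73.5 ± 5.32 in M2, a rise of 4.26 ± 0.31 (FDR = 7.60e-10) and 4.88 ± 0.32 (FDR = 1.44e-10, edgeR).

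The largest entry, m5, was at 1.66, 2.34 and 1.81 FPKM in F1, 46.5, 53.8 and 40.9 in F2, 0, 0.976 and 1.66 in M1 and 32.7, 46.5 and 44.4 in M2, so that no library of stage 1 came near those of stage 2. After opening the locus fell to 14 ± 1.09 FPKM in F4 and 3.81 ± 1.84 in M4. At stage 5 it was at 6.58 ± 2.34 in F5 and 0.784 ± 0.282 in M5, higher in female flowers by 2.45 ± 0.32 (FDR = 3.76e-07).

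The entry m5 alone differed by 3.29 ± 0.70 at stage 5 (FDR = 0.000306). The entries m1 and m6 were not called there, and m6 had 0 counts in M5 and counts in only 1 library of F5. Fitted with M1 and M2 alone, the rise of m5 in males had FDR = 0.013.

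The other bHLH91 locus, LITCHI011739.m1, was not called at any step between buds and was higher in open male flowers. It was at 14.4 ± 1.54 FPKM in F1, 19.7 ± 1.73 in F2, 17.4 ± 0.287 in M1 and 22.2 ± 2.25 in M2. Its libraries were at 6.56, 7.95 and 6.96 FPKM in F4 and 23.6, 19.3 and 15.7 in M4 (-1.66 ± 0.13, FDR = 1.50e-09). At stage 5 they were at 4.36, 3.68 and 3.76 in F5 and 7.05, 5.72 and 7.08 in M5 (-1.22 ± 0.13, FDR = 3.66e-08), where the value was -0.75 and no longer past the 2-fold limit when libraries were scaled by their total counts alone. The groups did not overlap at either stage.

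The rise of LITCHI025266 moved with other tapetum and pollen wall genes. Of 22 tested genes annotated with such functions, 17 rose from F1 to F2 (background 2.33%) and 16 from M1 to M2 (background 1.69%). From F3 to F4 18 fell (background 7.51%), and from M3 to M4 10 fell (background 12.6%). Their summed level was 107.9 to 115.7 FPKM in F1 and 871 to 2095 in F2, and 81.6 to 89.2 in M1 and 1188 to 1412 in M2, and 1 to 3 of the 24 genes matched were at 0 in a group. A litchi match (LITCHI002043.m1) of ABORTED MICROSPORES, a tapetum bHLH factor without a number in its name, was at 3.15 FPKM in F1, 115.9 in F2, 0.385 in M1 and 97.4 in M2. The other match (LITCHI004937.m1) did not rise. It was at 3.34 FPKM in F1, 1.99 in F2, 5.09 in M1 and 3.44 in M2, and was not called at this step. The part of the amount of tapetum in the rise of bHLH91 was not tested.

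**Figure D5:**
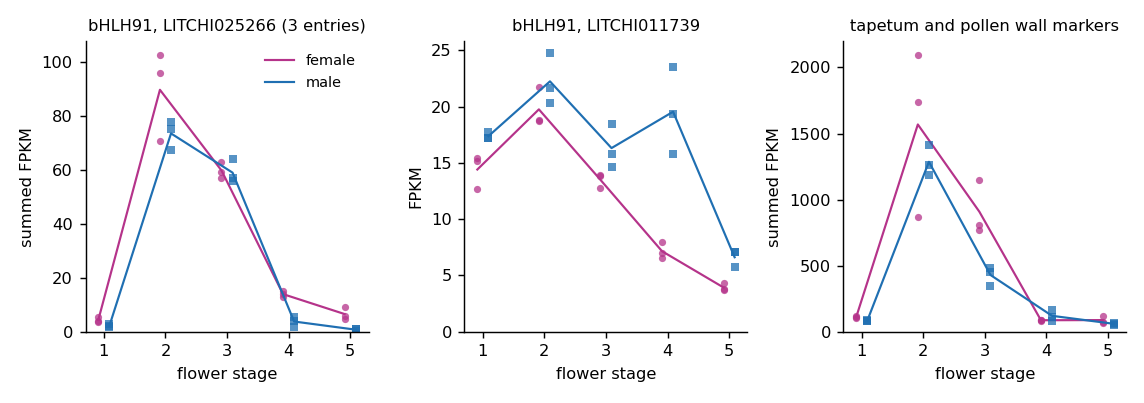
Level against flower stage (x axes) of the bHLH91 locus LITCHI025266 (FPKM summed over 3 entries), of the bHLH91 locus LITCHI011739 (FPKM) and of the tapetum and pollen wall genes (summed FPKM), with circles for female and squares for male libraries and lines through the group means; all y axes start at 0. The left and right panels peak at stage 2 in both sexes, and the middle panel has its male libraries above its female ones at stages 4 and 5.

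The sexes also differed in how far the genes moved over the whole course. Between stages 1 and 5, the change of 31 members differed between female and male flowers, 22 with the higher change in females, 23.7% against a background of 14.7%, and 9 with the higher change in males, 9.68% against 7.84%. With libraries scaled by total counts these numbers were 31 and 5, and the median of all genes moved by 0.48. The median of the members was 0.61, or 0.59 with those at 0 counts in a group set to their floor, against 0.07 for all tested genes.

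By the group in which their mean was highest, the tested members were spread over all 10 groups. M2 held 15 of them, 16.1% against 7.55% of all tested genes, F5 held 14% against 13%, and M4 6.45% against 11.5%. The median ratio of the highest to the lowest group mean was 5.54 among members with counts in every group. The tested members' median level over the libraries was 4.95 FPKM, where it was 4.47 FPKM over all tested genes.

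For comparison, 69 other entries are annotated as bHLH factors by a name without a number, such as ABORTED MICROSPORES or the PIF, MYC and BEE factors, and 62 of these were tested. At stage 4, 10 were higher in female flowers (16.1%, background 9.55%) and 5 lower (8.06%, background 7.4%). At stage 5, 22 were higher (35.5%, background 17.6%) and 8 lower (12.9%, background 11.6%). In male flowers 9 rose from stage 3 to 4 (14.5%, background 7.73%) and 15 fell (24.2%, background 12.6%). From stage 4 to 5 in male flowers the 2 sets differed. Of the other entries 2 rose (3.23%, background 3.63%) and 10 fell (16.1%, background 7%). Of the numbered members 10 rose (10.8%) and 6 fell (6.45%). Of the 8 pollen genes, 7 rose from M3 to M4 (background 7.73%) and 3 rose further to M5 (background 3.63%). For the 6 members lower in female flowers at both stages, values in male flowers are given gene by gene. bHLH91 (LITCHI011739.m1) held 3080, 3342 and 1119 unscaled counts in M3, M4 and M5. From M4 to M5 that gene changed by -1.31 ± 0.13 on the log2 scale. bHLH162 (LITCHI023771.m1) changed by -1.24 ± 0.69 and was not called. Unscaled counts do not carry the TMM factors, which were lowest in M5. In M4 and M5 these counts were 1541 and 1239 for bHLH123 (LITCHI013321.m1), not called at this step, and 1080 and 5247 for bHLH95 (LITCHI010953.m2). They were 6645 and 24131 for bHLH30 (LITCHI029049.m1) and 7972 and 12591 for bHLH63 (LITCHI001829.m1). The summed level of the pollen genes was 248 to 284 FPKM in F5 and 203 to 247 in M5, most of it from a pollen-specific protein C13 (LITCHI010442) that was not called, and none of them was at 0 in a group. None of the 4 pistil and ovule genes was at 0 in a group. The part of pollen and ovule tissue in the differences between the sexes was not tested.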

How the data were processed

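RNA sequencing of whole litchi flowers gave 30 libraries in 10 groups of 3, assigned from the sample labels. According to the labels and the study's methods, the authors purified RNA on columns, removed DNA, made paired-end libraries with a NEBNext Ultra kit, trimmed reads with Trimmomatic 0.33, removed ribosomal RNA reads and computed expression with Cufflinks 2.2.1. The submitters' processing notes also name HISAT2 2.0.4 and StringTie. The genome build and the counting tool are not given in the sources used here, and gene positions and sequences were not analysed. The deposited values are whole-number counts for each gene in each library, as the authors made them, without normalization. Beside them stand the authors' FPKM values, which take transcript length and sequencing depth into account. The table also holds the authors' own comparisons of 25 pairs of groups (adjusted p, fold change and direction), which were not used. No measurement column was without a library (0).

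All genes entered edgeR 4.0.16 (R 4.3.3) as counts (filterByExpr on the 10 groups, TMM scaling, 1 quasi-likelihood model over all libraries, glmQLFTest). The filter kept 27854 genes and removed 9380, with a biological coefficient of variation of 0.352. Genes were called at a 2-fold change and a Benjamini-Hochberg FDR below 0.01. Female was compared with male at the 5 stages, each stage with the next by sex, and the stage 1 to 5 change of females with that of males. SE was taken as the absolute log2 value over the root of its F statistic. A group at 0 counts was set to a floor of 3 counts over the group for bounds on a fold, and the fitted values of such genes depend on the prior count of 0.125. Bounds and intervals cover counting error only. The scripts were tested on simulated data.

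The members, the gene lists and the rule for named genes were chosen with earlier results of these data known. The rule took every member called between the sexes in buds, the 5 with the largest change in each direction at stages 4 and 5 (no overlapping libraries and a mean of 1 CPM or more in the higher group), the 3 in each direction whose stage 1 to 5 change differed most between the sexes, the 5 with the highest mean FPKM, the bHLH91 genes, and the member with the largest change in each direction at each step (with the same CPM minimum). Other members named as examples of role groups were chosen after their values were seen. Alternatives were scaling by library size, DESeq2 1.42.0, no filter, a filter of at least 1 CPM in 3 libraries, a fit of only the groups compared, a replicate block, leaving out each library, and summing the entries of a locus. Replicates did not agree within sampling noise in any group.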

Additional observations from a re-analysis of the deposited data

Results flagged for a closer look

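The change from stage 1 to stage 5 was tested for a difference between female and male flowers, and 31 of the 93 tested members passed (edgeR interaction term). The 3 largest in each direction are given with the value, female minus male, on the log2 scale.

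bHLH71 (LITCHI020437.m1) differed by 6.65, as it went from 434 counts in F1 to 2683 in F5 and from 364 in M1 to 13 in M5. The bHLH25 genes LITCHI007146.m1 and LITCHI007147.m1 differed by 6.0 and 5.15. From F1 to F5 their scaled counts changed by -1.13 and -0.88 on the log2 scale, and from M1 to M5 by -7.27 and -6.1. These changes within a sex were not tested, and M5 held 2 and 5 counts of them. bHLH95 (LITCHI010953.m2) had a fitted value of -9.71, which depends on the prior count since M1 held 0 counts. With M1 at the floor of 3 counts over the group, the male change was at least 11.13. The female change was 4.54 and the difference at that floor -6.59. The female change rests on 9 counts in F1, so this difference is not a bound. Without F1 replicate 3, the only F1 library with counts of this entry, the call was lost (-5.11). bHLH30 (LITCHI029049.m1) differed by -3.56 and bHLH49 (LITCHI005392.m1) by -2.34, and both rose further in males.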

How the results depend on the processing

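At stages 4 and 5, in the steps from F3 to F4, M2 to M3, M3 to M4 and M4 to M5, and in the stage 1 to 5 difference, the count of called members stayed within 1.5 times under every alternative run. At stage 1 the count of 1 was 3 with DESeq2, 2 with entries of a locus summed, 2 with library-size scaling, 4 with only the groups compared, 2 with a replicate block, 2 with the stricter filter and 1 to 2 without 1 library. At stage 2 the count of 1 was 3 with DESeq2 and 0 with only the groups compared. At stage 3 the count of 2 was 8 with DESeq2, 4 with entries summed and 6 with only the groups compared. From F1 to F2 the count of 4 was 1 with only the groups compared and 2 to 5 without 1 library. From F2 to F3 the count of 4 was 8 with DESeq2, 0 with only the groups compared and 3 to 8 without 1 library. From F4 to F5 the count of 2 was 4 with DESeq2, 0 with only the groups compared, 1 with the replicate block and 0 to 2 without 1 library. From M1 to M2 the count of 2 was 4 with DESeq2, 1 with entries summed and 1 with only the groups compared. bHLH27 (LITCHI016435.m1) at stage 5, which was not called, turned to -0.0077 without M5 replicate 1, in a range of -0.0077 to 0.17 without 1 library. The causes were not tested, except that a fit of 6 libraries has fewer residual degrees of freedom.

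Same-numbered replicates of different groups correlated at -0.11 to 0.05 in their deviations, so the numbers were not taken as pairs; the replicate block gave 25 calls at stage 4 and 35 at stage 5, where the counts were 25 and 36. With library-size scaling the share of calls over all genes that were higher in female flowers went from 56.4% to 70.8% at stage 4 and from 60.2% to 81.3% at stage 5. Depth limits the 25 members under 1 FPKM in every group.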
